A study of Mus musculus with 15 samples.

Results

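The genes described here are 10 genes of glucocorticoid signalling in mouse skin, followed through an irritant inflammation of the ear. They are the glucocorticoid receptor gene Nr3c1 and the mineralocorticoid receptor gene Nr3c2, the 2 enzyme genes Hsd11b1 and Hsd11b2, and 6 genes known to respond to glucocorticoids, Tsc22d3, Fkbp5, Zbtb16, Sgk1, Ddit4 and Errfi1. They were chosen by name, with results of these same libraries known. Their own values, fold changes and calls are therefore given as a description only. All 10 were found among the 48795 genes of the count tables, and 9 of them passed the filter on low counts that left 14991 genes. Hsd11b2 did not pass it.

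Messenger RNA was sequenced from the ears of female mice aged 5 weeks in 15 libraries. The mouse model named in every label, controls included, is ear inflammation induced by phorbol 12-myristate 13-acetate (PMA), an irritant that activates protein kinase C. The 5 control libraries carry the treatment label control, the 4 PMA_ethanol libraries carry a label that joins PMA and ethanol, and the 6 PMA_1002 libraries carry one that joins PMA and 1002, the innate defense regulator peptide that the series title names. No strain, dose, time or control vehicle is given in the sources used here, and the label PMA_1002 does not name ethanol. No label states that each library is a different animal, and the p-values therefore speak only of the scatter among these samples, which could be technical.

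Glucocorticoids diffuse into cells and bind the glucocorticoid receptor, which is held ready by heat shock protein chaperones, moves to the nucleus and raises or lowers transcription, often at a pair of short half-sites. In skin, local steroid levels are also set by 11-beta-hydroxysteroid dehydrogenase type 1, which regenerates active corticosterone from its inert form, and by type 2, which inactivates it. Glucocorticoids restrain inflammation and are a standard topical treatment for inflamed skin.

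Promoter sequence is shown for the members whose windows hold the core letters of a receptor half-site, to show how the members differ in the letters near their starts. RefSeq windows on GRCm38.p6, 250 bases before to 50 after a transcription start, were at hand for 7 of the 10 genes, 15 windows in all. The half-site AGAACA was searched on both strands, where it reads TGTTCT on the other. It was found in 4 windows of 2 genes, Sgk1 and Tsc22d3, against 18.97% of all 32851 windows. The pair, GNACA and TGTNC separated by any 3 bases, reads the same on both strands and can overlap the half-site. It was found in 1 window, against 0.4749% of all windows. That window belongs to one of the start sites of Sgk1, lies on the plus strand at chr10:21993640-21993939, and is printed with its matches in capitals. The capitals mark a lone half-site and then the pair with the half-sites it overlaps, and the first base of the pair lies 188 bases before the start.
Sgk1 window: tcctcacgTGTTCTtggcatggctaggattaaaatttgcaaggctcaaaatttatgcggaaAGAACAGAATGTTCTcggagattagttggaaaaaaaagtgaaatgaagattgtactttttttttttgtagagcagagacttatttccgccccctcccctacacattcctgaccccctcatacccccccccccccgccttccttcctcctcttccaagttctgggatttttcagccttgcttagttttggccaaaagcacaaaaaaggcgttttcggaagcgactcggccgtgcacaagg
The single half-sites of the other windows stand 185 bases before a start of Tsc22d3 (chrX:140600702-140600707, gene on the minus strand), and 195 and 13 bases before 2 further starts of Sgk1 (chr10:21881989-21881994 and chr10:21992210-21992215, plus strand). They are shown with 12 bases on each side, read along the gene.
Tsc22d3: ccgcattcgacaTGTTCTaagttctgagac
Sgk1, first start: aagggaatccgtTGTTCTgtgttttctgtg
Sgk1, later start: aaagtgggactcAGAACAgaaaggcaatag
A match of letters is a description and not a binding site, and the windows cover no distant enhancer.

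The members did not share 1 pattern. Tsc22d3, Zbtb16 and both receptor genes were lower with PMA_ethanol than in controls, Errfi1 was higher, and Fkbp5 stayed within the control range. With the peptide, Tsc22d3, Nr3c1 and Errfi1 stood between the PMA_ethanol and control values, Zbtb16 stayed near its PMA_ethanol level, and Ddit4 lay further from the controls than with PMA_ethanol. Levels are CPM, read counts scaled to a common library size (TMM). Each fold change is on the log2 scale and carries its standard error (SE) from edgeR, and a gene was called where its Benjamini-Hochberg adjusted p over all genes tested was under 0.05.

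**Figure D1:**
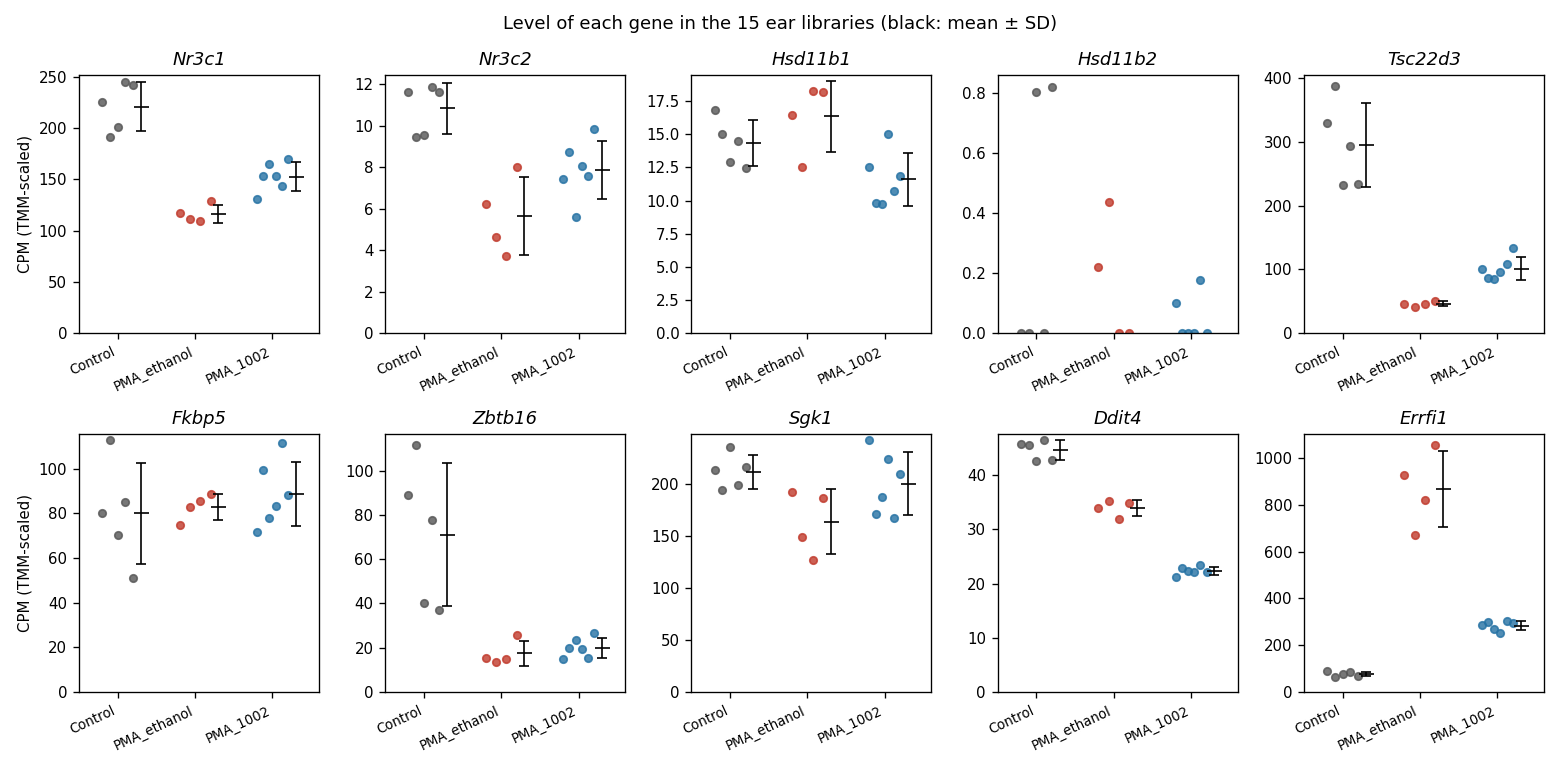
Level of each of the 10 genes in every library, in CPM, by group. Points are libraries, and the black marks are the group mean ± SD, left out for Hsd11b2. Errfi1 lies between 670.3 and 1056 CPM with PMA_ethanol and between 64.4 and 88.5 CPM in controls, whereas the Fkbp5 groups overlap.

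In PMA_ethanol against control, 7 of the 9 measured members were called, 1 higher and 6 lower, and the libraries of the 2 groups did not overlap for 7. Over all genes tested 68.4% were called, 32.5% higher and 35.9% lower, and 57.8% did not overlap. The median log2 fold change of the members was -0.39, beside -0.067 over all genes. In PMA_1002 against PMA_ethanol, 5 of the 9 were called, 2 higher and 3 lower, with 4 not overlapping, while 35.0% of all genes were called, 17.0% higher and 18.0% lower, and 24.1% did not overlap. In PMA_1002 against control, 6 of the 9 were called, 1 higher and 5 lower, with 5 not overlapping, beside 55.0% of all genes called, 28.4% higher and 26.7% lower, and 36.7% not overlapping. The median log2 fold changes of the members were 0.18 and -0.46 in these last 2 comparisons, beside 0.032 and -0.029 over all genes. Nothing is read from these counts, since results of these libraries were known when the members were chosen. The comparisons share libraries and are not independent of each other.

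**Figure D2:**
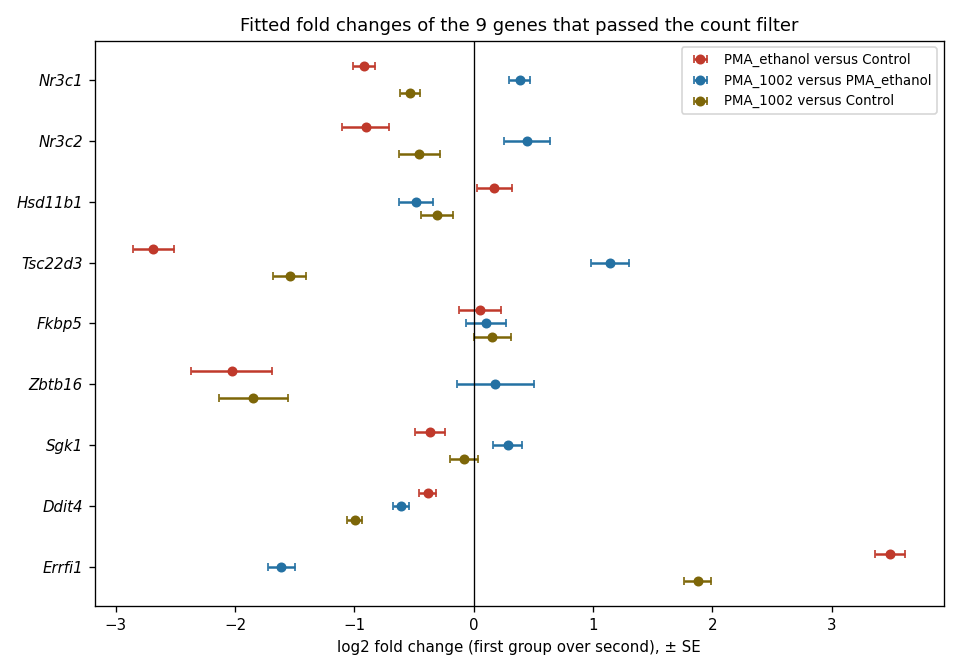
Fitted log2 fold change ± SE of the 9 measured members in the 3 comparisons. The red points of Tsc22d3 and Zbtb16 lie furthest to the left, at -2.68 and -2.03, and that of Errfi1 furthest to the right, at 3.49, while all 3 points of Ddit4 lie left of 0.

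Libraries held between 2656680 reads in genes (PMA_ethanol library 3) and 28585995 (a PMA_1002 library). Marker lists showed the tissues of an ear, keratinocytes, fibroblasts, muscle and fat among them, and 5 libraries stood apart by hair follicle markers that summed to over 1000 CPM (control libraries 3 and 5, PMA_ethanol libraries 1 and 2, PMA_1002 library 1). The 16 hair follicle markers summed to between 82.6 and 3780 CPM in controls, 24.5 and 3890 with PMA_ethanol, and 23.2 and 1260 with PMA_1002. Markers of other cell types moved with the groups. The 9 neutrophil markers, 7 of them measured, summed to between 34.1 and 48.1 CPM in controls, 1200 and 2540 with PMA_ethanol, and 257 and 529 with PMA_1002. Elane, a granule protease of neutrophil precursors, held 2 reads over all 15 libraries, none of them in control or PMA_1002 libraries, too few to compare groups. The 10 keratinocyte markers summed to between 33000 and 44500 CPM in controls, 19400 and 24200 with PMA_ethanol, and 38700 and 45300 with PMA_1002. The 9 macrophage markers summed to between 728 and 923, 1660 and 2320, and 1220 and 1560 CPM in the same order. In bulk tissue, fewer cells of a type and less RNA per cell cannot be told apart, and the part of these marker shifts in the results was not tested.

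Nr3c1 encodes the glucocorticoid receptor itself (ENSMUSG00000024431, GRCm38 chr18:39410545-39519421, minus strand). Its control libraries held 225.8, 191.4, 200.8, 244.7 and 242.5 CPM, and the PMA_ethanol libraries 117.1, 111.1, 109.5 and 128.9 CPM. The PMA_1002 libraries ran from 131.0 through a median of 153.3 to 170.1 CPM. The lowest control library therefore stood above every PMA library, and every PMA_1002 library stood above every PMA_ethanol library. The group means were 221.0 ± 24.2 (SD, n = 5), 116.6 ± 8.79 (n = 4) and 152.7 ± 14.2 CPM (n = 6). The fold change was -0.92 ± 0.094 in PMA_ethanol against control, 0.39 ± 0.090 in PMA_1002 against PMA_ethanol and -0.53 ± 0.083 in PMA_1002 against control.

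Nr3c2 encodes the mineralocorticoid receptor, which also binds corticosterone (ENSMUSG00000031618, chr8:76899442-77245012, plus strand). It held 11.6, 9.47, 9.55, 11.9 and 11.6 CPM in controls and 6.25, 4.64, 3.73 and 8.01 CPM with PMA_ethanol. With PMA_1002 it ran from 5.59 through 7.81 to 9.83 CPM. Controls stood above all PMA_ethanol libraries, while PMA_1002 overlapped both other groups. The fitted change was -0.90 ± 0.20 in PMA_ethanol against control, 0.45 ± 0.19 in PMA_1002 against PMA_ethanol and -0.46 ± 0.17 in PMA_1002 against control. The second of these was not called, but was without PMA_ethanol library 4 or PMA_1002 library 3 (0.65 and 0.52), and with upper-quartile scaling (0.52). The third was called, but not without any 1 of control libraries 1, 4 and 5 and PMA_1002 libraries 1, 3 and 5 (between -0.44 and -0.38). That call was also lost without a count filter (-0.41) and without the 5 libraries high in hair follicle markers (-0.47). Exons of Nr3c2 share 247 bases with Gm10649 on the opposite strand. The strand option of the counting is not given in the sources used here, and that share is therefore uncertain.

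Hsd11b1 encodes the enzyme that regenerates active corticosterone (ENSMUSG00000016194, chr1:193221634-193264075, minus strand). It held 16.8, 14.99, 12.9, 14.5 and 12.5 CPM in controls and 16.5, 12.6, 18.3 and 18.2 CPM with PMA_ethanol. PMA_1002 libraries ran from 9.78 through 11.3 to 15.04 CPM. All 3 groups overlapped, with PMA_ethanol library 2 below the highest PMA_1002 library. The log2 change came to 0.17 ± 0.15 in PMA_ethanol against control, -0.48 ± 0.14 in PMA_1002 against PMA_ethanol and -0.31 ± 0.14 in PMA_1002 against control. The second was called, but not without PMA_ethanol library 4 (-0.42). The third was not called, but was without PMA_ethanol library 2 or PMA_1002 library 4 (-0.305 and -0.38). It was also called with upper-quartile scaling (-0.46), a minimum count of 50 (-0.36) and a fit of only the 2 groups compared (-0.31). The same held without the 5 libraries high in hair follicle markers (-0.45). Lamb3 overlaps Hsd11b1 on the opposite strand, with 0 exon bases shared.

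Hsd11b2 encodes the enzyme that inactivates corticosterone (ENSMUSG00000031891, chr8:105518755-105523988, plus strand). The 5 control libraries held 0, 0, 10, 0 and 5 reads, the 4 PMA_ethanol libraries 2, 10, 0 and 0, and the 6 PMA_1002 libraries 1, 0, 0, 0, 5 and 0. With so few reads the gene was not tested between groups. The libraries with reads were control 3 and 5, PMA_ethanol 1 and 2, and PMA_1002 1 and 5. The first 5 of these are the 5 libraries high in hair follicle markers, and PMA_1002 library 5 is the deepest of all, with 35.1 CPM of hair follicle markers. The part of hair follicle content in these reads was not tested.

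Tsc22d3 encodes GILZ, a leucine zipper protein that glucocorticoids induce and that restrains inflammatory transcription factors (ENSMUSG00000031431, chrX:140539528-140600659, minus strand). Control libraries held 329.9, 387.9, 233.1, 292.8 and 233.3 CPM, and PMA_ethanol libraries 46.3, 41.2, 46.5 and 50.4 CPM. With PMA_1002 the libraries ran from 84.4 through 97.6 to 134.2 CPM. The 3 groups did not overlap, and the PMA_1002 libraries stood between the other two groups. The means were 295.4 ± 66.1 (SD, n = 5), 46.1 ± 3.74 (n = 4) and 101.4 ± 18.4 CPM (n = 6). The fold change was -2.68 ± 0.17 in PMA_ethanol against control, 1.14 ± 0.16 in PMA_1002 against PMA_ethanol and -1.54 ± 0.14 in PMA_1002 against control. A list of 12 circadian clock genes, none of them a member, moved with the groups too. It summed to between 1120 and 1420 CPM in controls, 402 and 522 with PMA_ethanol and 689 and 916 with PMA_1002. Of the 12, 8 were called lower and 2 higher in PMA_ethanol against control, and 8 were called higher in PMA_1002 against PMA_ethanol. The hour at which ears were taken is not given in the sources used here, and its part was not tested.

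Fkbp5 encodes a co-chaperone that lowers the hormone affinity of the receptor and is itself a widely used marker of receptor activity (ENSMUSG00000024222, chr17:28399094-28517527, minus strand). Controls held 80.3, 112.6, 70.4, 85.1 and 51.2 CPM, and PMA_ethanol libraries 74.8, 82.7, 85.5 and 88.5 CPM. PMA_1002 libraries ran from 71.8 through 85.8 to 111.3 CPM. The groups overlapped throughout, and the controls were the most spread. The fitted change was 0.05 ± 0.17 in PMA_ethanol against control, 0.10 ± 0.17 in PMA_1002 against PMA_ethanol and 0.16 ± 0.16 in PMA_1002 against control. None of the 3 was called, and without control library 5, the lowest, the first was -0.070.

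Zbtb16 encodes PLZF, a zinc finger repressor strongly induced by glucocorticoids in several tissues (ENSMUSG00000066687, chr9:48654297-48836222, minus strand). Controls held 89.1, 111.8, 40.2, 77.5 and 37.2 CPM, and PMA_ethanol libraries 15.5, 13.4, 14.9 and 25.8 CPM. With PMA_1002 the libraries ran from 14.9 through 19.8 to 26.6 CPM. Every control library stood above every PMA library, while PMA_ethanol and PMA_1002 overlapped. The log2 change came to -2.03 ± 0.34 in PMA_ethanol against control, 0.18 ± 0.32 in PMA_1002 against PMA_ethanol and -1.85 ± 0.29 in PMA_1002 against control. The second of these was not called, and it was -0.073 without the 5 libraries high in hair follicle markers.

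The spread of Zbtb16 within groups moved with skeletal muscle markers. The 14 muscle markers summed to between 1810 and 5670 CPM in controls, 1140 and 5470 with PMA_ethanol and 2070 and 4370 with PMA_1002, with 0 of 14 called in each comparison. The library with the most muscle marker RNA was also the highest for Zbtb16 in each group, namely control 2 (5667 CPM of markers), PMA_ethanol 4 (5468) and PMA_1002 6 (4374). The same 3 libraries were the highest for Tsc22d3. With the log2 marker sum as a covariate, an alternative chosen after seeing the data, the fold change of Zbtb16 was -1.83 in PMA_ethanol against control and -1.68 in PMA_1002 against control. That of Tsc22d3 was -2.62 and -1.48. In controls, libraries 3 and 5, which are high in hair follicle markers and the lowest for muscle, were the 2 lowest for Tsc22d3, Fkbp5 and Zbtb16.

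**Figure D3:**
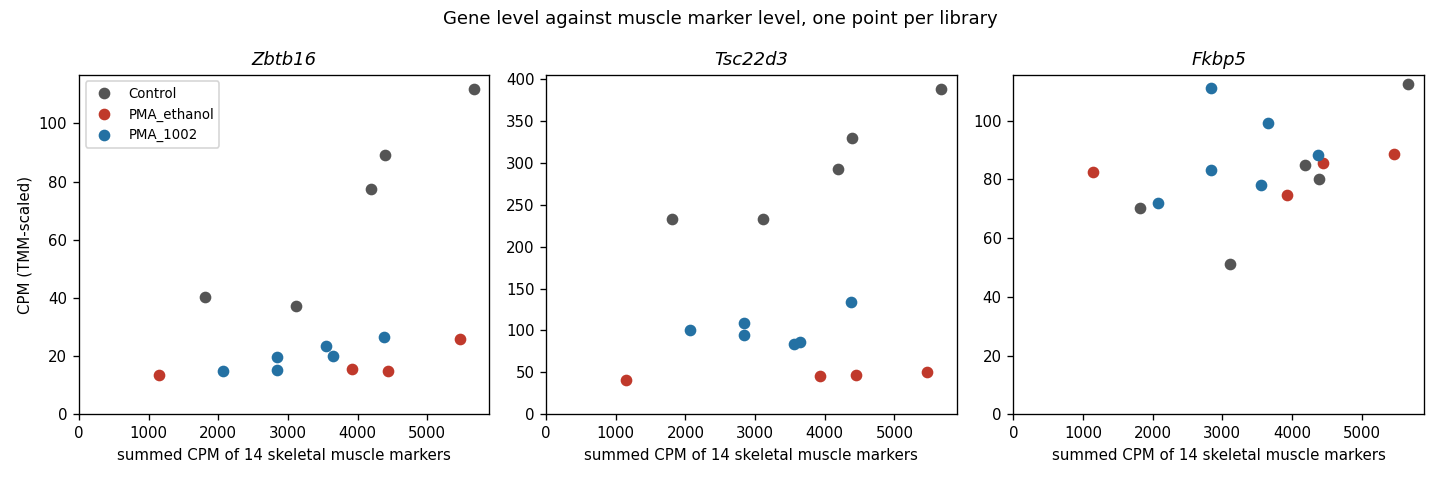
Level (CPM) of Zbtb16, Tsc22d3 and Fkbp5, 1 panel each, against the summed CPM of 14 skeletal muscle markers, with 1 point per library coloured by group. Within each group the library furthest to the right (5667, 5468 and 4374 CPM of markers) is the highest for Zbtb16 and for Tsc22d3, and for Fkbp5 this holds in the control and PMA_ethanol groups but not in PMA_1002.

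Sgk1 encodes a kinase induced by glucocorticoids and mineralocorticoids that promotes sodium uptake (ENSMUSG00000019970, chr10:21882184-21999903, plus strand). Controls held 213.3, 194.5, 236.1, 198.7 and 216.1 CPM, and PMA_ethanol libraries 192.5, 149.0, 126.9 and 186.8 CPM. PMA_1002 libraries ran from 167.3 through 198.8 to 242.8 CPM. The highest PMA_ethanol library came within 2 CPM of the lowest control, and PMA_1002 overlapped both groups. The fold change was -0.37 ± 0.13 in PMA_ethanol against control, 0.29 ± 0.12 in PMA_1002 against PMA_ethanol and -0.08 ± 0.11 in PMA_1002 against control. The first was called, but not without PMA_ethanol library 2 or 3 (-0.32 and -0.26). The second was not called, but was without PMA_ethanol library 1 or PMA_1002 library 5 (0.37 and 0.33). It was also called with upper-quartile scaling (0.37) and with hair follicle content as a covariate (0.37).

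Ddit4 encodes REDD1, a stress and glucocorticoid responsive inhibitor of mTORC1 signalling (ENSMUSG00000020108, chr10:59949669-59951834, minus strand). Controls held 45.8, 45.5, 42.5, 46.4 and 42.8 CPM, and PMA_ethanol libraries 34.0, 35.1, 31.9 and 34.9 CPM. With PMA_1002 the libraries ran from 21.3 through 22.3 to 23.4 CPM. The 3 groups were each narrow and did not overlap, in the order control, PMA_ethanol, PMA_1002. The means were 44.6 ± 1.80 (SD, n = 5), 34.0 ± 1.45 (n = 4) and 22.3 ± 0.70 CPM (n = 6). The fitted change was -0.39 ± 0.069 in PMA_ethanol against control, -0.61 ± 0.067 in PMA_1002 against PMA_ethanol and -0.99 ± 0.063 in PMA_1002 against control.

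Errfi1 encodes MIG6, a feedback inhibitor of the epidermal growth factor receptor whose transcription glucocorticoids and growth factors raise (ENSMUSG00000028967, chr4:150853919-150868892, plus strand). Controls held 88.5, 64.4, 78.2, 85.2 and 70.0 CPM, and PMA_ethanol libraries 927.4, 670.3, 823.0 and 1056 CPM. PMA_1002 libraries ran from 250.3 through 291.1 to 302.5 CPM. The groups did not overlap, with PMA_ethanol highest and controls lowest. The means were 77.3 ± 10.1 (SD, n = 5), 869.3 ± 163.5 (n = 4) and 284.3 ± 20.4 CPM (n = 6). The log2 change came to 3.49 ± 0.13 in PMA_ethanol against control, -1.61 ± 0.11 in PMA_1002 against PMA_ethanol and 1.88 ± 0.11 in PMA_1002 against control.

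Levels of different genes were set side by side only per kilobase of exon. In controls the mean level was 68.1 CPM per kb for Tsc22d3, 43.2 for Sgk1, 28.8 for Nr3c1, 25.4 for Ddit4, 21.6 for Errfi1, 13.5 for Zbtb16, 8.44 for Fkbp5, 3.37 for Hsd11b1, 1.67 for Nr3c2 and 0.18 for Hsd11b2. The control libraries of neighbours in that order overlapped from Nr3c1 through to Fkbp5 and were apart for the other pairs. With PMA_ethanol, Errfi1 led at 243 CPM per kb, ahead of Sgk1 at 33.4, Ddit4 at 19.4, Nr3c1 at 15.2, Tsc22d3 at 10.6, Fkbp5 at 8.75, Hsd11b1 at 3.85, Zbtb16 at 3.29 and Nr3c2 at 0.87. Only Hsd11b1 and Zbtb16 overlapped among these neighbours. With PMA_1002 the order was Errfi1 at 79.4, Sgk1 at 40.9, Tsc22d3 at 23.4, Nr3c1 at 19.9, Ddit4 at 12.7, Fkbp5 at 9.36, Zbtb16 at 3.78, Hsd11b1 at 2.73 and Nr3c2 at 1.22 CPM per kb. There Tsc22d3 overlapped Nr3c1, and Zbtb16 overlapped Hsd11b1. Tsc22d3 thus went from the first of the 10 genes in controls to the fifth with PMA_ethanol and the third with PMA_1002.

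The genes whose log2 CPM followed each member most closely over the 15 libraries were taken from 12299 genes with a mean of at least 5 CPM. All points share the 3 groups, so where a Pearson r is printed, the r after removing group means is given second. Tsc22d3 was most like Tef, a clock output transcription factor (0.99, then 0.67), followed by Sh3yl1 and Tfdp2. Errfi1 was most like Trib1 (0.997, then 0.78), Csrnp1 and Kdm6b. Nr3c1 was most like Pcmtd2 (0.98, then 0.84), Tbl1xr1 and Ogn, and Nr3c2 most like Nuf2 (0.96, then 0.88), Ldb2 and Pfn2. Zbtb16 was most like R3hdm2 (0.96, then 0.90), 1600020E01Rik and Man2a2. Fkbp5 was most like Sfswap (0.80, then 0.86), 9930014A18Rik and Pcnx, Sgk1 most like Pisd-ps1 (0.92, then 0.87), the unnamed ENSMUSG00000095041 and Rbfa, and Hsd11b1 most like Ralgps1 (0.86, then 0.69), Dpm1 and Plpp3. Ddit4 was most like Marveld2, where almost none of the likeness was left within groups (0.94, then -0.017). Next were Zfp704 (0.90, then 0.13) and Chst2 (0.90, then -0.325), the last with the opposite sign within groups.

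Around the members, 107 other genes of the pathway in 5 lists were counted, of which 91 passed the count filter. The lists were chosen with earlier results of these data known, so their called shares are a description only. The first list, 16 chaperones that hold the receptor ready to bind hormone, had 11 members higher and 4 lower in PMA_ethanol against control, with a median log2 fold change of 0.44, beside -0.067 over all genes. Genes called made up 93.8%, 31.2% and 62.5% of this list in the 3 comparisons, beside 68.4%, 35.0% and 55.0% of all genes tested; the share in PMA_1002 against PMA_ethanol is thus near that of all genes. Hspa8 rose from 344.5 to 823 CPM (1.26 ± 0.074, edgeR adjusted p = 1.93e-10), Hsp90aa1, the inducible HSP90 gene, from 88.8 to 273.2 CPM (1.62 ± 0.099, adjusted p = 3.00e-10), and the HSP70 to HSP90 adaptor Stip1 by 0.78 ± 0.077 (adjusted p = 1.03e-07). Fkbp4, the co-chaperone that favours nuclear transport of the receptor, fell by 0.45 ± 0.10 (adjusted p = 9.59e-04). Hspa1b and Hspa1a fell by 0.50 ± 0.077 and 0.44 ± 0.088 (adjusted p = 2.17e-05 and 2.96e-04). These 2 genes are near-identical copies, so the share of reads given to each is uncertain. In PMA_1002 against PMA_ethanol, 2 chaperones were higher and 3 lower (median -0.079). Hspa1b rose by 0.62 ± 0.075 and Hspa1a by 0.58 ± 0.085 (adjusted p = 8.14e-06 and 5.81e-05), whereas Hspa8 fell by 0.45 ± 0.071 and Hsp90aa1 by 0.54 ± 0.093 (adjusted p = 1.14e-04 and 2.72e-04). Stip1 fell by 0.24 ± 0.073 (adjusted p = 0.0162), a call lost without PMA_ethanol library 1 (-0.20, adjusted p = 0.0678). It was also lost with upper-quartile scaling (-0.16), without a count filter (-0.24), with a replicate block (-0.21) and without the 5 libraries high in hair follicle markers (-0.15). Over all alternatives the adjusted p of Stip1, from edgeR or in 1 of them from DESeq2, lay between 0.003 and 0.337. In PMA_1002 against control, 10 were higher and 0 lower (median 0.29), and the smallest adjusted p-values were those of Hspa8 (0.81 ± 0.068), Hsp90aa1 (1.08 ± 0.091) and Stip1 (0.54 ± 0.070), with adjusted p of 4.87e-08, 5.06e-08 and 6.62e-06.

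Of 14 coregulators that the receptor recruits to chromatin, 5 were higher and 2 lower in PMA_ethanol against control (median 0.0045). Over the 3 comparisons 50%, 21.4% and 57.1% of the list were called, beside 68.4%, 35.0% and 55.0% of all genes tested, so the first and second shares lie below that of all genes and the third near it. Nrip1, a hormone-dependent corepressor, rose by 0.82 ± 0.10 (adjusted p = 2.34e-06), the Mediator subunit Med1 by 0.59 ± 0.074 (2.15e-06) and the arginine methyltransferase Carm1 by 0.53 ± 0.081 (1.86e-05). The orphan receptor gene Nr2f2 fell from 23.5 to 8.56 CPM (-1.49 ± 0.22, adjusted p = 1.49e-05) and the coactivator Ncoa1 fell by 0.38 ± 0.076 (2.44e-04). In PMA_1002 against PMA_ethanol, 1 was higher and 2 lower (median -0.11). Nrip1 fell by 0.46 ± 0.099 (adjusted p = 0.00157). Nr2f2 rose by 0.68 ± 0.22 (adjusted p = 0.0221), a call lost without PMA_ethanol library 2 or 4 (0.55 and 0.49, adjusted p up to 0.0873). The call of Nr2f2 was also lost in a fit of only the 2 groups compared (0.66). Ncoa3 fell by 0.18 ± 0.065 (adjusted p = 0.0413), a call lost without any 1 of 8 libraries (control 4, PMA_ethanol 1 to 3 and PMA_1002 1 to 4, between -0.19 and -0.16, adjusted p up to 0.106). Over all 25 alternatives the call of Ncoa3 was lost in 12, upper-quartile scaling (-0.10) among them. In PMA_1002 against control, 4 were higher and 4 lower (median 0.026). Med1 rose by 0.41 ± 0.067, Carm1 by 0.39 ± 0.074 and the chromatin remodeller Smarca4 by 0.36 ± 0.072 (adjusted p = 6.74e-05, 3.16e-04 and 4.62e-04). Nr2f2 fell by 0.81 ± 0.19, Ncoa3 by 0.24 ± 0.061 and Ncoa1 by 0.20 ± 0.067 (adjusted p = 0.00155, 0.00291 and 0.0171). Without a count filter the calls of Ncoa3 (-0.195) and Ncoa1 (-0.16) were lost, and that of Ncoa1 was also lost without the 5 libraries high in hair follicle markers (-0.21).

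Of 32 further genes known as glucocorticoid targets, 31 passed the count filter, all but Tat. In PMA_ethanol against control 18 were higher and 11 lower (median 0.59). The called share of the list was 93.5%, 64.5% and 74.2% in the 3 comparisons, beside 68.4%, 35.0% and 55.0% of all genes tested. Many of them also respond to inflammatory signals. Lcn2, an iron-trapping protein of neutrophils and inflamed epithelium, rose from 4.18 to 226.4 CPM (5.77 ± 0.16, adjusted p = 4.69e-14). Angptl4, an inhibitor of lipoprotein lipase, rose from 7.32 to 254.9 CPM (5.11 ± 0.20, adjusted p = 3.26e-12), and Nfkbia, the NF-kappa-B inhibitor gene, from 100.8 to 589.8 CPM (2.55 ± 0.12, adjusted p = 1.46e-11). Pck1, the gluconeogenic enzyme that fat also uses for glycerol synthesis, fell from 16.2 to 0.95 CPM (-4.18 ± 0.38, adjusted p = 4.29e-08). Adipocyte markers, 11 in all and 3 of them called lower, summed to between 901 and 1390 CPM in controls and 695 and 1060 CPM with PMA_ethanol. Sesn1, a stress-responsive inhibitor of mTORC1, fell from 72.1 to 10.03 CPM (-2.80 ± 0.19, adjusted p = 1.11e-09), and Fbxo32, the muscle atrophy ubiquitin ligase, from 74.6 to 19 CPM (-1.93 ± 0.19, adjusted p = 1.52e-07).

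With the peptide, 15 of these 31 targets were lower and 5 higher than with PMA_ethanol (median -0.56). Lcn2 fell to 49.2 CPM (-2.21 ± 0.12, adjusted p = 3.50e-09), Angptl4 to 57.1 CPM (-2.16 ± 0.16, adjusted p = 8.90e-08) and Rgs2, a regulator of G protein signalling, from 185.3 to 59.6 CPM (-1.63 ± 0.15, adjusted p = 1.01e-06). Sesn1 rose to 20.6 CPM (0.99 ± 0.18, adjusted p = 4.11e-04), Pck1 to 3.61 CPM (1.99 ± 0.38, adjusted p = 6.57e-04) and Hif3a from 0.37 to 1.60 CPM (1.66 ± 0.45, adjusted p = 0.00847). The call of Pck1 was lost without the 5 libraries high in hair follicle markers (1.40), and that of Hif3a with hair follicle content as a covariate (1.27). Against control, 14 stayed higher with PMA_1002 and 9 lower (median 0.31). Lcn2 was higher by 3.55 ± 0.15 (adjusted p = 1.71e-11). Cebpd, a transcription factor of the acute phase, rose from 24.3 to 129.9 CPM (2.43 ± 0.14, adjusted p = 5.25e-10), and the metallothionein gene Mt2 from 154.8 to 1187 CPM (2.94 ± 0.17, adjusted p = 6.71e-10). Sesn1, Fbxo32 and Pck1 fell by 1.81 ± 0.15, 1.36 ± 0.16 and 2.19 ± 0.27 (adjusted p = 5.58e-08, 3.09e-06 and 4.36e-06).

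Of 13 genes that act with Sgk1 or carry out the mineralocorticoid response, 12 passed the filter, and 6 were higher and 4 lower in PMA_ethanol against control (median 0.19). Of the 12, 83.3%, 50% and 66.7% were called in the 3 comparisons, beside 68.4%, 35.0% and 55.0% of all genes tested. The epithelial sodium channel subunit Scnn1g rose from 6.30 to 30.2 CPM (2.26 ± 0.22, adjusted p = 1.12e-07) and Scnn1a by 0.91 ± 0.095 (2.21e-07). Ndrg1, a substrate of the Sgk1 kinase, rose from 156.4 to 440.6 CPM (1.495 ± 0.088, adjusted p = 1.80e-10). Nedd4, a ubiquitin ligase of the family that removes the channel, fell from 721.1 to 376.8 CPM (-0.94 ± 0.074, adjusted p = 7.32e-09), and the kinase genes Wnk4 and Sgk3 fell by 0.62 ± 0.12 and 0.50 ± 0.12 (adjusted p = 2.57e-04 and 0.00101). In PMA_1002 against PMA_ethanol, 1 was higher and 5 lower (median -0.052). Nedd4 rose by 0.39 ± 0.071 (adjusted p = 4.25e-04), while Ndrg1 fell to 222.4 CPM (-0.99 ± 0.083, adjusted p = 2.08e-07), Scnn1g by 1.32 ± 0.20 (8.08e-05) and Nedd4l by 0.52 ± 0.092 (3.28e-04). In PMA_1002 against control, 5 were higher and 3 lower (median 0.061). Scnn1a rose by 0.60 ± 0.087 and Ndrg1 by 0.51 ± 0.080 (adjusted p = 2.34e-05 and 4.83e-05). Nedd4, Wnk4 and Sgk3 fell by 0.55 ± 0.065, 0.72 ± 0.11 and 0.36 ± 0.10 (adjusted p = 2.53e-06, 3.60e-05 and 0.00626). The call of Sgk3 was lost without the 5 libraries high in hair follicle markers (-0.29).

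The list of steroid synthesis and handling held 32 genes, of which 18 passed the filter. Among the 14 that did not were the adrenal enzymes Cyp11b1, with 3 reads over all 15 libraries, Cyp11b2 with 0, Cyp21a1 with 21 and Hsd3b1 with 0, and the hormone gene Crh with 0. Other genes of steroid synthesis did pass, namely Cyp11a1, Cyp17a1, Hsd3b6 and Star, at control means of 22.7, 26.8, 6.7 and 2.7 CPM. In PMA_ethanol against control 3 of the 18 were higher and 6 lower (median -0.30). Cyp11a1 was among the lower (-0.82 ± 0.19, edgeR adjusted p = 9.69e-04), while Cyp17a1 (-0.67 ± 0.49), Hsd3b6 (-1.14 ± 1.33) and Star (0.61 ± 0.27) were not called there. With SEs this wide for Cyp17a1 and Hsd3b6, the lack of a call does not show a steady level. The shares called, 50%, 16.7% and 38.9% in the 3 comparisons, lie below the 68.4%, 35.0% and 55.0% of all genes tested. Por, the electron donor of microsomal P450 enzymes, rose from 137.9 to 255 CPM (0.89 ± 0.084, adjusted p = 6.35e-08). H6pd, which supplies the NADPH that the Hsd11b1 enzyme needs to regenerate corticosterone, rose from 27.4 to 44.9 CPM (0.71 ± 0.10, adjusted p = 7.28e-06), and the drug efflux pump gene Abcb1b by 0.96 ± 0.16 (4.23e-05). Ucn2, a peptide of the corticotropin-releasing hormone family, fell by 1.48 ± 0.20, the steroid reductase gene Srd5a1 by 0.90 ± 0.16 and Fdxr, which passes electrons to mitochondrial steroid enzymes, by 0.84 ± 0.19 (adjusted p = 3.96e-06, 7.48e-05 and 6.59e-04).

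In PMA_1002 against PMA_ethanol, 1 steroid gene was higher and 2 were lower (median 0.068). Por fell to 151.3 CPM (-0.75 ± 0.080, adjusted p = 2.08e-06) and H6pd to 32.0 CPM (-0.48 ± 0.095, adjusted p = 7.93e-04). The reductase gene Srd5a3 rose by 0.25 ± 0.095 (adjusted p = 0.0453), a call lost without any 1 of 10 libraries (control 3 to 5, PMA_ethanol 2 to 4 and PMA_1002 3 to 6, between 0.18 and 0.26, adjusted p up to 0.16). Over all 25 alternatives the call of Srd5a3 was lost in 17, RLE scaling and DESeq2 (0.21 in each) among them. In PMA_1002 against control, 2 were higher and 5 lower, and the median (0.0022) and the mean (-0.17) had opposite signs. Abcb1b rose by 0.65 ± 0.14 (adjusted p = 0.00114). H6pd rose by 0.22 ± 0.091 (adjusted p = 0.0451), a call lost without any 1 of 6 libraries (control 3 to 5, PMA_ethanol 1 and PMA_1002 4 and 5, between 0.16 and 0.23, adjusted p up to 0.131). Over all 25 alternatives the call of H6pd was lost in 12, upper-quartile scaling (0.066) and a replicate block (0.22) among them. Ucn2, Fdxr and Srd5a1 fell by 1.22 ± 0.17, 0.68 ± 0.16 and 0.57 ± 0.14 (adjusted p = 1.32e-05, 0.00192 and 0.00228).

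**Figure D4:**
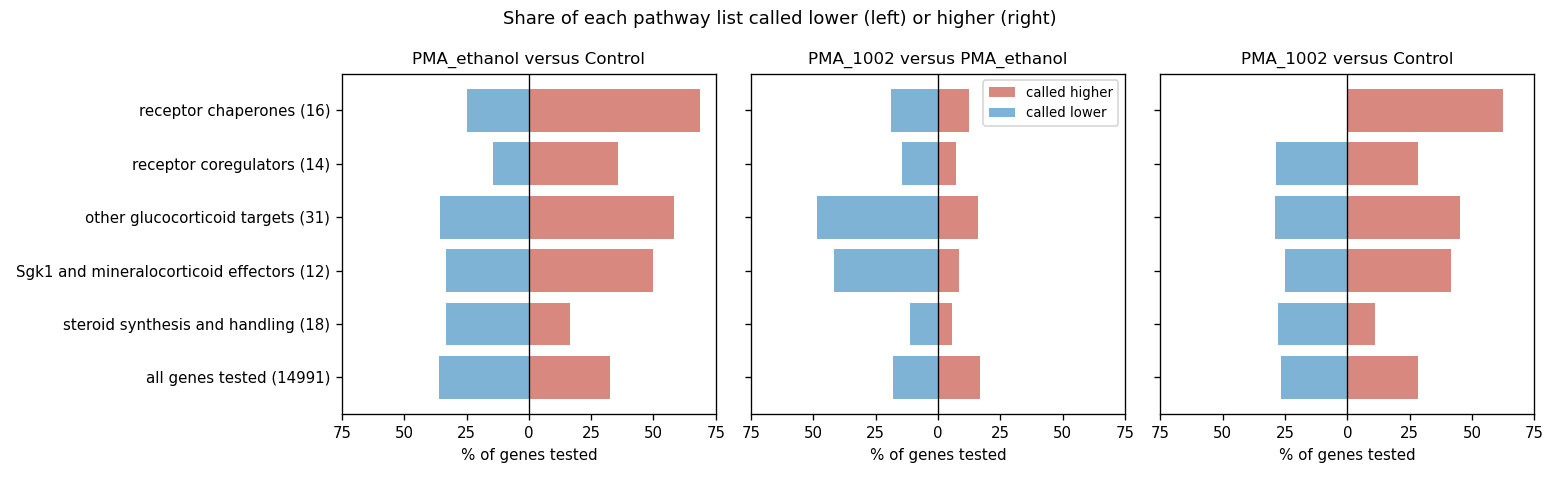
Percent of the tested genes of each pathway list that were called lower (blue, left) or higher (red, right) in the 3 comparisons, with all 14991 genes tested at the bottom; numbers in brackets are genes tested. In the middle panel 15 of 31 other glucocorticoid targets are called lower and 5 higher, beside 18.0% and 17.0% of all genes.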

How the data were processed

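The authors deposited 1 table of unnormalized read counts for each library. The tools named in the submitters' processing notes are FastQC 0.11.5, MultiQC 0.8, STAR 2.5 and HTSeq, with the build GRCm38, and per the labels' protocols the library kit keeps strand. Reads given to no gene, 28.5% to 32.85% of each table, were left out of every library size and fit. Symbols, positions and exon lengths came from GENCODE M21 on GRCm38, which named 48349 of 48795 genes.

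Tests were run with edgeR 4.0.16 under R 4.3.3 (TMM scaling, filterByExpr by group with a minimum count of 10, robust quasi-likelihood fit over all 15 libraries with group as the only term). The Benjamini-Hochberg adjustment ran over all 14991 genes tested, and an SE is the log2 fold change divided by the root of its F statistic. Likeness used log2 CPM with a prior count of 2. Within groups, no library was a repeat of another (chi-square per degree of freedom of 2.927 or more over 31 pairs). Pairs across groups were not compared. Depth between 2656680 and 28585995 reads limits precision for genes of few reads.

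The members and gene lists were chosen with earlier results of these data known. Genes named are all members, up to 3 called genes per list, comparison and direction with the smallest adjusted p, and the 3 genes most like each member, except 1 gene that is not reported here. Elane, the untested steroid genes with their reads, and Cyp11a1, Cyp17a1, Hsd3b6 and Star were chosen after their values were seen. Alternatives were other scalings (RLE and upper quartile), DESeq2 1.42.0, no count filter or a minimum count of 50, fits of only the 2 groups compared, a replicate block, hair follicle or muscle content as a covariate, and leaving out each library or the 5 libraries high in hair follicle markers.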

Additional observations from a re-analysis of the deposited data

Results flagged for a closer look

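In each group of libraries, a library was looked at again where its gap to the nearest other value was large for the range of the group. This met 5 of 144 groups looked at, where chance gives about 1 in 20. Among the members it was Zbtb16 in PMA_ethanol library 4, at 25.8 CPM beside 13.4 to 15.5 CPM in the other libraries (gap over range 0.834), the library with the most muscle marker RNA in its group. Among the other named genes it was Med1 in control library 1 (87.6 CPM beside 66.9 to 72.7), Nr2f2 in control library 3 (18.5 CPM beside 24.4 to 25.1), Nfkbia in PMA_1002 library 2 (438 CPM beside 289.2 to 343.3) and Ndrg1 in PMA_ethanol library 4 (511.9 CPM beside 409.4 to 425.7).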

How the results depend on the processing

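Over 25 alternatives, 443 of 450 counts stayed within 1.5 times the value given, and counts of called members ran between 6 and 7, 5 and 7, and 5 and 7 in the order of the comparisons. Of 675 fold changes of members, 640 kept direction and call, 12 lost a call, 13 gained one and 10 changed sign. Of 1899 fold changes of the other named genes, 1844 kept both, 55 lost a call and 0 changed sign. The muscle covariate and the fit without the 5 libraries high in hair follicle markers were chosen after seeing the data. With upper-quartile scaling, the median over all genes moved by -0.24, 0.078 and -0.16 (log2), and the share of called genes that were higher became 33.6%, 61.8% and 34.6%, against 47.5%, 48.7% and 51.5%. Under it 13 coregulators were called in PMA_ethanol against control (7 in the text), Fkbp5 was at -0.18 and Hsd11b1 at -0.063 in that comparison, and Fkbp5 was at -0.0040 in PMA_1002 against control. In PMA_1002 against PMA_ethanol, called coregulators numbered 5 with RLE scaling, 6 with DESeq2 and 5 with the hair follicle covariate (3 in the text). Called steroid genes there numbered 5 with the muscle covariate, and between 2 and 5 with 1 library left out (3 in the text, 5 without PMA_ethanol library 4). Without a count filter, 5 coregulators were called in PMA_1002 against control (8 in the text). With the hair follicle covariate, Fkbp5 was at -0.037 and Zbtb16 at -0.14 in PMA_1002 against PMA_ethanol, and Sgk1 at 0.019 in PMA_1002 against control. Without the 5 libraries high in hair follicle markers, Fkbp5 was at -0.078 in PMA_ethanol against control and -0.0039 in PMA_1002 against control, Zbtb16 at -0.073 in PMA_1002 against PMA_ethanol, and the calls of Sgk1 in PMA_ethanol against control (-0.34) and Nr3c2 in PMA_1002 against control (-0.47) were lost. With 1 library left out, Fkbp5 in PMA_ethanol against control ran between -0.070 (without control library 5) and 0.205 (without control library 2). The cause was not tested.

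No pairing of libraries by replicate number was seen. The check cannot exclude one, since hair follicle and muscle content also varied within groups. Of 13 pairs with the same number in 2 groups, 2 had deviations from the group means correlated above 0.1 (median -0.24), and 1 of 14 libraries correlated best with its own number. With a replicate block, 7, 5 and 6 members were called in the 3 comparisons. Over all genes 4704 were called higher and 5158 lower in PMA_ethanol against control, 1890 and 2098 in PMA_1002 against PMA_ethanol, and 4108 and 3699 in PMA_1002 against control. Depth limits Hsd11b2 and, less so, Nr3c2 and Hsd11b1.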

Other observations

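Ddit4 varied little between libraries. Its coefficient of variation was 4.03% in controls, 4.27% with PMA_ethanol and 3.14% with PMA_1002, below the 5.77%, 7.34% and 7.82% that counting its reads alone would give on average. Ddit4 was picked out here after its values were seen, and the cause of the narrow spread was not tested. For Zbtb16 it was 45.1%, 32.5% and 23.1%, beside 4.87%, 10.4% and 8.12% from counting.

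Mast cell markers, 7 in all, summed to between 329 and 409 CPM in controls, 175 and 289 with PMA_ethanol and 257 and 334 with PMA_1002. The 6 T cell markers summed to between 179 and 211, 166 and 217, and 198 and 253 CPM in the same order, and the 8 endothelial markers to between 229 and 277, 259 and 297, and 214 and 247 CPM. The endothelial sum ran higher with PMA_ethanol than in controls, although 4 of the 8 markers were called lower and 2 higher (median log2 fold change -0.37).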
